A study of Mus musculus with 8 samples.

Results

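Solute carriers are membrane proteins that move small molecules across the plasma membrane and the membranes of mitochondria, lysosomes, the Golgi and other organelles, and the genes are numbered by family (Slc) and member. The 121 genes described here were chosen by their level: every row of the expression table named Slc and a digit whose level averaged 5 FPKM or more in the 8 columns that matched the samples, without Slc40a1 and Slc2a1. FPKM, fragments per kilobase of transcript scaled to the size of the library, is a level per length, so it can be compared between genes. The 121 were drawn from 374 rows with such a name among 23997 genes, of which 56 were at 0 in every library. At the minimum, Slc30a1 at 5.14, Slc39a4 at 5.26 and Slc38a6 at 5.30 FPKM were just inside, and Slc25a42 at 4.74, Slc27a1 at 4.67 and Slc35f2 at 4.66 FPKM were just outside. Because the genes were selected on their mean over both genotypes, their presence is no finding. The minimum itself does not use the contrast between genotypes, but the set was chosen with earlier results of these data known. In 116 of the 121 the mean reached 5 FPKM in both groups. Slc25a33, Slc25a53, Slc30a1 and Slc38a6 were under it in the sufficient group, and Slc39a4 in the deficient group.

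The samples were regulatory T (Treg) cells, the Foxp3-expressing CD4+ T cells that restrain immune responses, sorted as CD4+YFP+ cells from spleen and draining lymph nodes of C57BL/6 mice. The deficient group had the genotype Bcl11b f/f Foxp3-YFP-Cre/+ and the sufficient group Bcl11b f/+ Foxp3-YFP-Cre/+, with 4 samples in each. Both groups thus carry the Cre, which is made from the Foxp3 locus together with YFP, and the sufficient cells also carry 1 floxed allele of Bcl11b, the gene of a zinc finger transcription factor of T cells. The sources used here do not give the ages of the mice or whether animals were pooled.

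In T cells, amino acid exchangers such as the CD98 and LAT1 pair supply leucine and other large amino acids to mTORC1, the kinase complex that couples nutrients to growth. ASCT2 and the SNAT carriers bring in glutamine, GLUT transporters bring in glucose, and MCT1 moves lactate and pyruvate. Within the cell, the Slc25 family exchanges nucleotides, phosphate and metabolic intermediates across the inner mitochondrial membrane. Slc30 and Slc39 proteins move zinc out of and into the cytosol, and the Slc35 family delivers nucleotide sugars to the Golgi for glycosylation.

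The 8 columns were counted as 5 independent libraries. Replicates 1 and 3 of both genotypes and replicates 2 and 4 of the deficient one differed within each pair by 1.10 to 1.27 times the spread that sampling of fragments gives, against 1.89 to 2.85 times in the other 9 pairs of the same group. Each of those pairs was averaged and counted as 1 library by a bound set at 1.5 times, although the labels list the columns as separate samples, which leaves 2 deficient and 3 sufficient libraries. With so few libraries, an exact two-sided permutation test cannot go below a p of 0.1, and values below are given in a fixed order, first the deficient libraries (replicates 1 and 3, then 2 and 4) and then the sufficient ones (replicates 1 and 3, replicate 2, replicate 4). The depth per column, estimated from the steps between low values, was 3170000 to 12120000 fragments in deficient and 2970000 to 12790000 in sufficient samples, so that 5 FPKM on 2 kb of transcript stands for 30 to 128 fragments. Bcl11b itself was at 24.4 and 19.0 FPKM in the deficient and 42.4, 46.5 and 39.1 FPKM in the sufficient libraries, and a value for the whole gene does not resolve the deleted exons. Foxp3 was present in all libraries, at 153 and 154 against 198, 198 and 165 FPKM. A list of 12 Treg and T cell genes summed to 2704 and 2874 against 3531, 3337 and 3611 FPKM. At an unadjusted limma p under 0.05, 7 of the 12 were lower and 0 higher, against 8.45% and 9.36% of all genes tested. Ctla4 was called lower, at 119 and 103 against 477, 375 and 274 FPKM.

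Markers of other cells were present too. Summed over 17 macrophage and monocyte genes of the table, the level was 669 and 343 FPKM in the deficient and 26.7, 92.5 and 80.7 FPKM in the sufficient libraries, 8 of the 15 tested genes were called higher, and none was at 0 throughout. A list of 16 natural killer and innate lymphoid genes summed to 748 and 833 against 511, 456 and 436 FPKM, with 6 of 11 tested genes called higher. Fcer1g, the signalling chain of several Fc and killer receptors, was at 247 and 283 against 0.980, 6.93 and 6.41 FPKM. Without it the other 15 genes summed to 500.4 and 550.0 against 510.0, 449 and 430 FPKM, which overlapped. Most of that sum was Il2rb, which lay lower in the deficient libraries, at 361 and 390 against 491, 410 and 400 FPKM. Ncr1, a defining receptor of natural killer cells, was at 0.539 FPKM or less in all libraries and was not tested. Besides Fcer1g, the genes called higher were Klrd1, Klrk1, Gzma, Cd160 and Tyrobp, and 0 were called lower. Klrd1 was at 12.01 and 19.61 against 0.1141, 0.2347 and 0.8004 FPKM. Cd160 was at 26.95 and 37.26 against 7.222, 7.846 and 7.226 FPKM. Prf1 and Eomes overlapped between the groups. In bulk RNA, more cells of a type and more RNA per cell cannot be told apart, and the part of these cells in the solute carrier values was not tested.

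Between the genotypes, 3 of the 121 solute carriers rose in the deficient cells and 0 fell (2.48%), where 2.63% of all genes tested were called. They were Slc25a33, a mitochondrial pyrimidine nucleotide carrier, Slc25a53, a mitochondrial carrier family member whose substrate is not known, and Slc26a11, an anion transporter. In all 3 the deficient mean was more than 2 times the sufficient mean. Slc25a33 and Slc25a53 were under 5 FPKM in the sufficient group and reached the minimum only through the deficient one. Among the 116 genes at 5 FPKM or more in each group, only Slc26a11 was called (0.862%). A call here means a Benjamini-Hochberg adjusted p under 0.05 over all genes tested in limma, run on log2(FPKM + 1). That scale understates changes of low genes.

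Slc25a33 lies on chromosome 4 (GRCm38, chr4:149744036-149774277, minus strand). Its level was 14.4 and 13.7 FPKM in the deficient and 5.04, 2.93 and 5.35 FPKM in the sufficient libraries. Both deficient libraries were thus more than 2 times above every sufficient one. The mean was 14.1 ± 0.481 FPKM (SD, n = 2) against 4.44 ± 1.32 FPKM (SD, n = 3), a log2 difference of 1.501 (SE 0.22, limma adjusted p = 0.0238). Of its annotated exon bases, 14.9% overlap Gm13068 on the opposite strand, and the sources used here do not say whether the counting used strand.

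Slc26a11 lies on chromosome 11 (chr11:119355557-119381079, plus strand). It was at 15.7 and 16.3 FPKM in the deficient and 6.25, 7.43 and 7.88 FPKM in the sufficient libraries. The replicates of each group lay close together. On average it reached 16.0 ± 0.440 FPKM (SD, n = 2) against 7.19 ± 0.842 FPKM (SD, n = 3), with a log2 difference of 1.06 (SE 0.13, limma adjusted p = 0.0145).

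Slc25a53 is on the X chromosome (chrX:136981116-137038302, minus strand). It read 7.17 and 9.34 FPKM in the deficient and 3.05, 3.05 and 3.90 FPKM in the sufficient libraries. This is a low gene that passed the minimum of 5 FPKM only through the deficient group, as did Slc25a33. The log2 difference was 1.09 (SE 0.17, limma adjusted p = 0.0280).

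The 250 bases before the transcription start are given for Slc25a33 and Slc25a53. They come from the RefSeq promoter table of build GRCm38.p6, which has an entry for 88 of the 121 genes. The called gene Slc26a11 has no entry there, so its promoter was not searched. Capitals mark matches on either strand to TGACCA, the motif known for the related factor BCL11A, and to the E-box CACGTG. The other motifs searched were the cAMP response element TGACGTCA and the amino acid response element TGATGNAA. The first sequence is chr4:149774268-149774517, the second chrX:137038303-137038552 and the third chrX:136993033-136993282, all on the minus strand and all written 5′ to 3′.
Slc25a33: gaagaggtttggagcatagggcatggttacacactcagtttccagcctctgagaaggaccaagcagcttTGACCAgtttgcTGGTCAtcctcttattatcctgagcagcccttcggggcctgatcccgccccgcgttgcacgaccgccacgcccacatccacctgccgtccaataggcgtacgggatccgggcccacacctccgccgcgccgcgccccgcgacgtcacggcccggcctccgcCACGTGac
Slc25a53, one start: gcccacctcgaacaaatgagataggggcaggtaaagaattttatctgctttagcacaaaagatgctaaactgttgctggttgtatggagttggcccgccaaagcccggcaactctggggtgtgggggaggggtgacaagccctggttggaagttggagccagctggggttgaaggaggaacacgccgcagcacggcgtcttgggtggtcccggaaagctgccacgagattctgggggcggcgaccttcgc
Slc25a53, the other start: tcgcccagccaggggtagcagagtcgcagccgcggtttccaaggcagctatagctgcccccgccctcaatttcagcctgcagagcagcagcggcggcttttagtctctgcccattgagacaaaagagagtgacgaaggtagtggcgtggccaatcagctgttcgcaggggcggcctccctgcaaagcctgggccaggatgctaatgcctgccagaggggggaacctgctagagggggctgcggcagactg
In Slc25a33, TGACCA begins 181 bases before the start and again, on the opposite strand, 169 bases before it, and an E-box begins 8 bases before it. Neither start of Slc25a53 holds any of the motifs. Over 300-base windows, which reach 50 bases past the start, TGACCA was found in 16 of the 88 solute carriers (18.2%), in 12.9% of the tested genes with an entry and in 13.6% of all 32851 promoters. The E-box was found in 18.2% of the solute carriers, 12.3% of tested genes and 7.2% of all promoters. The cAMP response element was in 3 and the amino acid response element in 2 of the 88. These are matches of letters in a window and not measured sites. Median GC content was 62.0% in the promoters of the solute carriers and 61.0% in those of tested genes.

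The 3 called genes were 2.48% of the 121, but Slc25a33 and Slc25a53 reached the minimum of 5 FPKM only through the group where they were high. Among the 116 genes at 5 FPKM or more in each group, 1 was called, Slc26a11 (0.862%). Over the 10614 genes tested, 2.63% were called in either direction, 1.93% higher and 0.697% lower. At an unadjusted limma p under 0.05, 16 of the 121 were higher and 13 lower, against 9.36% and 8.45% of all genes. In 29 of the 121 every deficient library was above every sufficient one, and in 22 every deficient library was below, while the groups overlapped in 70. Among all genes tested, 18.9% did not overlap with the deficient higher and 17.9% with the deficient lower.

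Most solute carriers, like most genes tested, differed little between the genotypes. The median log2 difference was -0.01 over the 121 and -0.01 over all genes tested. Within 0.5 in either direction were 110 of the 121 and 9490 of the 10614 genes tested. Summed over the 121, the level was 3284 and 3180 FPKM in the deficient and 3337, 3316 and 3334 FPKM in the sufficient libraries. This was 0.690% and 0.647% of all FPKM in the deficient and 0.592%, 0.651% and 0.544% in the sufficient libraries. Total FPKM was 474416 to 495435 in deficient and 509592 to 613276 in sufficient columns, and with equal totals the calls over all genes went from 205 higher and 74 lower to 341 higher and 30 lower. The median of all genes then moved from -0.01 to 0.18 and that of the solute carriers to 0.19.

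No other solute carrier was called. The 53 tested solute carriers with a mean under 5 FPKM also held 0 called genes, with 7 higher and 5 lower at an unadjusted limma p under 0.05 and a median log2 difference of 0.01. When deficient replicates 1 and 3 were left out 0 of the 121 were called, and the same was found without deficient replicates 2 and 4. With the 8 columns as separate libraries 32 were called, 19 higher and 13 lower. Without a filter on low values the count was 0, with adjusted p of 0.0937 for Slc25a33, 0.0975 for Slc25a53 and 0.0540 for Slc26a11.

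**Figure D1:**
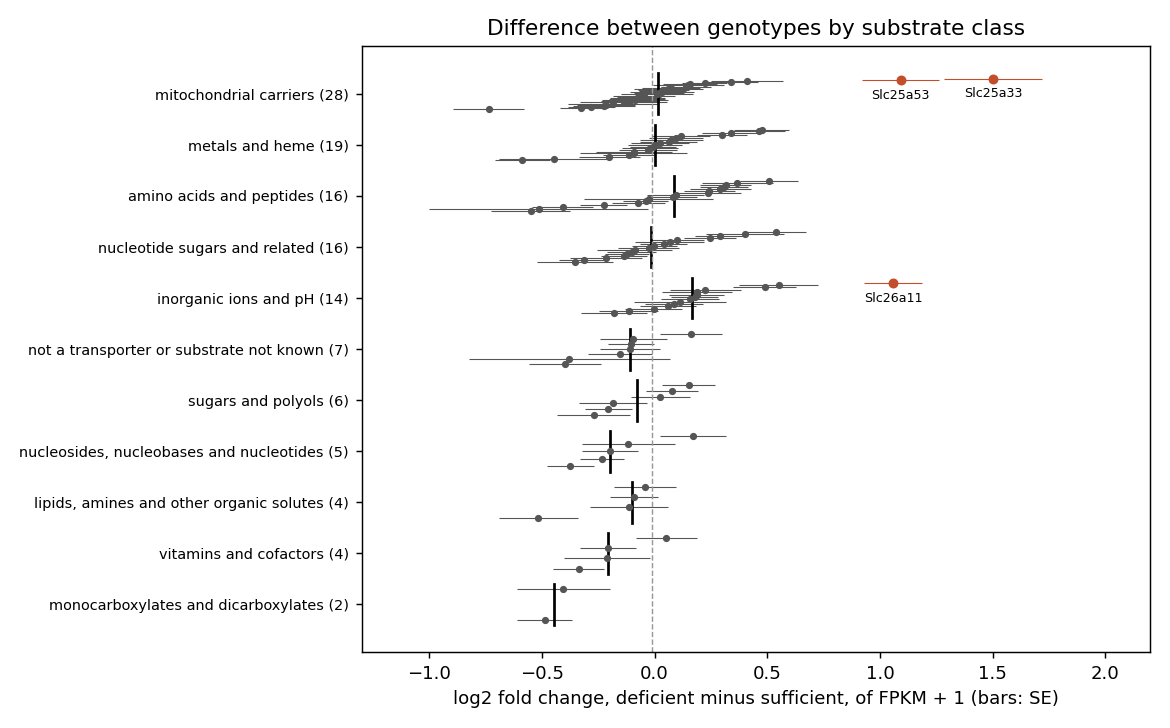
Log2 difference of FPKM + 1 between deficient and sufficient libraries (x axis) for each of the 121 solute carriers, by substrate class (y axis, number of genes in brackets). Points are genes with their SE, black lines class medians, the dashed line the median of all genes tested and red points the 3 called genes, which lie to the right of all others between 1.06 and 1.501.

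Mitochondrial carriers of the Slc25 family were the largest class, with 28 genes and 34.5% of the summed level. Of these 2 rose, Slc25a33 and Slc25a53, and 0 fell, and the class median log2 difference was 0.02. Both were under 5 FPKM in the sufficient group, and none of the carriers at 5 FPKM or more in each group was called. The libraries did not overlap in 8 genes with the deficient higher and in 3 with the deficient lower, against 18.9% and 17.9% of all genes tested. Calls were made in 2.63% of all genes tested. The summed level was 1095 and 1114 FPKM in the deficient and 1202, 1146 and 1133 FPKM in the sufficient libraries.

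The most abundant of all 121 genes was Slc25a5, the adenine nucleotide translocator ANT2 that exchanges ADP for ATP, with 12.1% of the summed level. It was at 353 and 417 FPKM in the deficient and 443, 377 and 374 FPKM in the sufficient libraries, which overlapped. Slc25a3, the mitochondrial phosphate carrier, came second, with 238 and 206 against 273, 268 and 232 FPKM. That difference was -0.21 on the log2 scale (SE 0.13, limma adjusted p = 0.435). Slc25a4, the ANT1 translocator, read 59.8 and 59.2 FPKM against 71.9, 76.5 and 76.1 FPKM. Its groups did not overlap, and the log2 difference of -0.33 (SE 0.09, limma adjusted p = 0.143) was not called.

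The widest negative difference of the class was in Slc25a25, a carrier of ATP-Mg and phosphate that responds to calcium. It was at 11.4 and 9.23 FPKM in the deficient and 16.1, 21.2 and 16.4 FPKM in the sufficient libraries. All deficient values lay below all sufficient ones, but the log2 difference of -0.74 (SE 0.16) had a limma adjusted p of 0.0656. Its paralogues Slc25a23 and Slc25a24, which carry the same substrates, lay on the other side. Slc25a23 was at 17.2 and 14.3 against 11.7, 12.8 and 12.3 FPKM (log2 difference 0.34, limma adjusted p = 0.215). Slc25a24 was at 10.2 and 13.9 against 9.31, 7.77 and 9.09 FPKM (log2 difference 0.41, limma adjusted p = 0.246). None of the 3 paralogues was called.

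Among carriers of metabolic intermediates, Slc25a11, the oxoglutarate and malate carrier, was nearly equal between the genotypes, at 41.8 ± 0.566 FPKM (SD, n = 2) and 41.3 ± 3.83 FPKM (SD, n = 3). Slc25a12, the aspartate and glutamate carrier of the malate-aspartate shuttle, was at 27.6 ± 1.25 and 29.0 ± 0.767 FPKM (SD, n = 2 and 3). Slc25a1, which exports citrate, had a log2 difference of -0.14 (SE 0.19), less than its error. Slc25a20, the acylcarnitine carrier of fatty acid oxidation, did not overlap between groups, at 15.4 and 16.4 against 19.6, 19.2 and 19.9 FPKM (log2 difference -0.28, limma adjusted p = 0.216). The mitoferrins, which import iron, read 15.0 ± 0.669 and 14.6 ± 0.370 FPKM for Slc25a37 and 20.6 ± 6.49 and 23.1 ± 2.998 FPKM for Slc25a28 (SD, n = 2 and 3).

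Carriers of inorganic ions and pH regulators had the highest class median, at 0.17 on the log2 scale. Of the 14 genes, 1 rose (Slc26a11) and 0 fell, 11 had a difference above 0, and in 5 the deficient libraries lay above all sufficient ones. Among all genes tested, 2.63% were called and 18.9% did not overlap with the deficient higher. The summed level of the class was 335 and 289 FPKM in the deficient and 244, 280 and 265 FPKM in the sufficient libraries. No class as a whole was tested. Both deficient sums lay above all sufficient sums, and deficient replicates 1 and 3 gave the higher one.

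Potassium and chloride cotransporters let cells lose salt and water after swelling. Slc12a7 (KCC4), one of them, was at 59.9 and 48.3 FPKM in the deficient and 33.6, 40.6 and 40.5 FPKM in the sufficient libraries. The log2 difference of 0.49 (SE 0.14) was not called (limma adjusted p = 0.138). Its groups did not overlap. By contrast, Slc12a4 (KCC1) read 7.09 and 5.33 against 7.36, 7.07 and 6.89 FPKM, and its groups overlapped.

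Slc8b1, the sodium and calcium exchanger of mitochondria, was at 10.4 and 8.68 FPKM in the deficient and 5.06, 6.08 and 7.58 FPKM in the sufficient libraries. The groups were apart but the sufficient libraries spread widely, and the log2 difference of 0.55 (SE 0.18) had a limma adjusted p of 0.171. Slc20a1, the phosphate importer PiT1 and the most abundant gene of the class, was at 68.5 and 49.2 against 49.5, 54.1 and 45.4 FPKM. Only deficient replicates 1 and 3 stood above the sufficient range in Slc20a1. The bicarbonate transporter Slc4a7 had a log2 difference of -0.12 (SE 0.13), no larger than its error.

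Amino acid and peptide carriers numbered 16, of which 0 were called by limma. At an unadjusted p under 0.05, 3 were higher and 2 lower, against 9.36% and 8.45% of all genes tested. The class median log2 difference was 0.09. The libraries did not overlap in 6 genes upward and 3 downward, against 18.9% and 17.9% of all genes tested. The summed level was 485 and 445 FPKM in the deficient and 473, 519 and 431 FPKM in the sufficient libraries, which overlapped.

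The CD98 and LAT1 pair was on the low side. Slc3a2, the CD98 heavy chain that brings several Slc7 exchangers to the surface, was at 45.1 and 35.9 FPKM in the deficient and 56.1, 72.9 and 51.0 FPKM in the sufficient libraries. The deficient values were below all sufficient ones (log2 difference -0.55, SE 0.18, limma adjusted p = 0.171). Slc7a5, the LAT1 light chain for large neutral amino acids, was at 14.8 and 11.95 against 16.3, 19.4 and 18.3 FPKM (log2 difference -0.41, SE 0.13, limma adjusted p = 0.182). A further light chain, Slc7a6, was at 16.6 and 17.8 against 20.9, 20.6 and 19.2 FPKM (log2 difference -0.23, limma adjusted p = 0.324). None of these 3 differences passed the test, though the groups did not overlap in any of the 3.

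Glutamine carriers differed among themselves. Slc1a5 (ASCT2), the most abundant amino acid carrier, was nearly equal in all libraries, at 118 and 120 FPKM in the deficient and 117, 128 and 122 FPKM in the sufficient libraries. Slc38a2 (SNAT2) varied widely within each group, at 106 and 67.8 against 114, 93.5 and 60.7 FPKM, so that no difference could be seen beyond the spread (log2 difference -0.03, SE 0.29). Slc38a1 (SNAT1) was at 29.8 and 32.9 against 21.4, 29.6 and 21.8 FPKM. Its deficient values were above all sufficient ones, by a small margin over sufficient replicate 2 (log2 difference 0.37, SE 0.16, limma adjusted p = 0.287).

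Slc7a1, which imports arginine and lysine, had the largest positive difference of the class. It was at 20.1 and 17.7 FPKM in the deficient and 13.1, 14.3 and 11.6 FPKM in the sufficient libraries. The groups were apart, with a log2 difference of 0.51 (SE 0.13, limma adjusted p = 0.1003). Slc43a2 (LAT4), a facilitative carrier of large neutral amino acids, and the lysosomal carrier Slc36a1 did not overlap either, with log2 differences of 0.31 and 0.32. Slc38a9, the lysosomal arginine sensor of mTORC1, overlapped, at 6.96 and 5.50 against 5.07, 5.53 and 4.75 FPKM. The peptide carrier Slc15a2 had the widest spread within a group among all 121 genes, at 6.22 and 17.3 against 9.03, 25.9 and 15.5 FPKM.

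Metal and heme carriers were 19 genes, 0 of them called by limma, with a median log2 difference of 0.00. At an unadjusted p under 0.05, 4 were higher and 1 lower, against 9.36% and 8.45% of all genes tested. The 14 zinc carriers among them had a median of -0.00 and a summed level of 201 and 197 FPKM in the deficient and 202, 198 and 214 FPKM in the sufficient libraries. The 2 groups of zinc sums overlapped.

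Among metal and heme carriers the libraries did not overlap in 5 genes with the deficient higher and in 1, Slc39a11, with the deficient lower. Of all genes tested, 18.9% and 17.9% did not overlap in these directions. Slc39a11, a zinc carrier of the ZIP family, was at 6.28 and 7.01 FPKM in the deficient and 9.70, 10.95 and 10.8 FPKM in the sufficient libraries. Among all 121 genes this was the second largest negative difference, at -0.59 (SE 0.12), and its limma adjusted p was 0.0589. The zinc carriers Slc39a9 and Slc30a1 did not overlap in the other direction. Slc39a9 was at 13.4 and 15.1 against 11.3, 11.6 and 11.2 FPKM (log2 difference 0.30, limma adjusted p = 0.232). Slc30a1 had a log2 difference of 0.12 (limma adjusted p = 0.676). Slc39a7, which releases zinc from the endoplasmic reticulum and is the most abundant metal carrier, was at 66.0 and 63.6 against 68.9, 57.6 and 71.6 FPKM. Annotated exons of Slc39a7 share 31.0% of their bases with Gm20427. Slc30a5, which loads zinc into the secretory pathway, and Slc39a1, at the cell surface, overlapped between groups, with log2 differences of -0.01 (SE 0.10) and -0.20 (SE 0.14).

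In Slc11a2, Slc41a3 and Slc48a1 both deficient libraries lay above all sufficient ones. The magnesium carrier Slc41a1 overlapped, with a log2 difference of -0.11 (SE 0.12). Slc11a2 (DMT1), the importer of ferrous iron, was at 16.6 and 19.5 FPKM in the deficient and 12.6, 12.2 and 13.6 FPKM in the sufficient libraries. Its log2 difference of 0.46 (SE 0.12, limma adjusted p = 0.107) was not called. It was called with equal total FPKM (adjusted p = 0.0383) and with the 8 columns as separate libraries (adjusted p = 0.00498, and 0.0154 with the replicate block). Slc41a3, also a magnesium carrier, was at 9.33 and 8.57 against 6.12, 5.85 and 6.50 FPKM (log2 difference 0.47, SE 0.12, limma adjusted p = 0.106). Slc48a1, the heme transporter of endosomes and lysosomes, was at 23.9 and 22.6 against 16.3, 17.7 and 20.8 FPKM (log2 difference 0.34, limma adjusted p = 0.237).

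**Figure D2:**
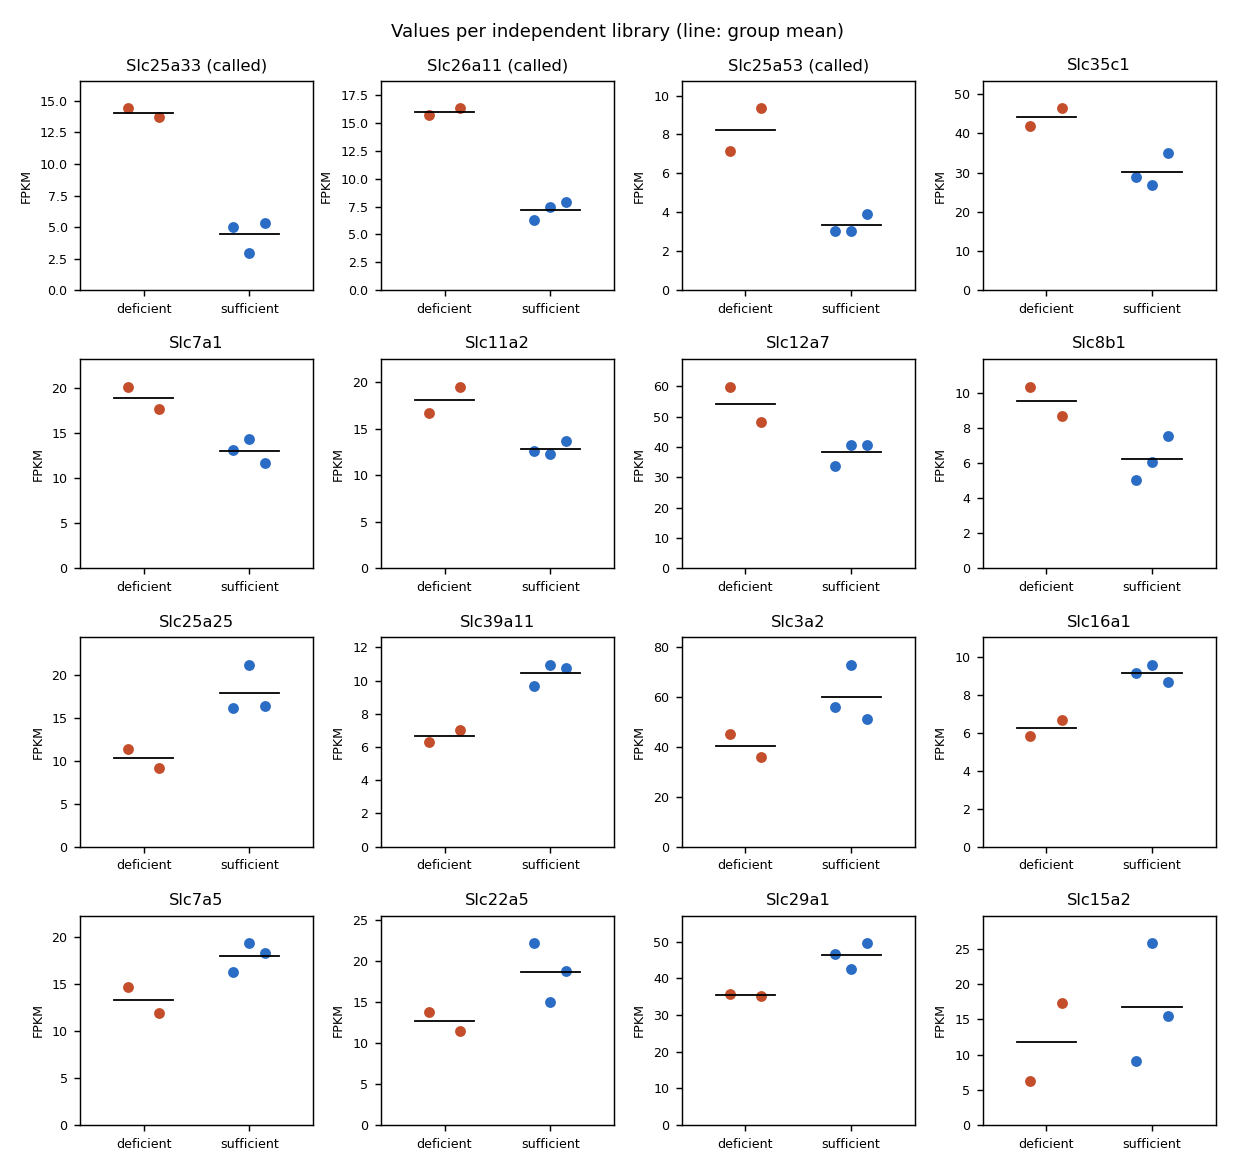
FPKM (y axis, from 0) of 16 solute carriers in the 2 deficient (red) and 3 sufficient (blue) independent libraries, with the group mean as a line. In the 3 genes marked as called all deficient points are above all sufficient points, and in Slc15a2 the groups overlap widely.

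Nucleotide sugar carriers and related Slc35 genes numbered 16, with 0 called by limma and a median log2 difference of -0.01. At an unadjusted p under 0.05, 2 were higher and 1 lower, against 9.36% and 8.45% of all genes tested. The libraries did not overlap in 5 genes upward and 5 downward, against 18.9% and 17.9% of all genes tested. Slc35c1, which supplies GDP-fucose to the Golgi and so to selectin ligands, was the highest of the class. It was at 41.8 and 46.4 FPKM in the deficient and 28.9, 26.9 and 34.9 FPKM in the sufficient libraries. The log2 difference was 0.54 (SE 0.13) with a limma adjusted p of 0.0991, and it was called with equal total FPKM (adjusted p = 0.0223) and with the 8 columns as separate libraries (adjusted p = 0.00283, and 0.0109 with the replicate block). As for Slc11a2, equal totals moved the median of all genes to 0.18, and the 8-column fits count near-identical columns as independent.

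Carriers of other donors for glycans and sulfation lay on both sides. Slc35b2 and Slc35b3 both carry PAPS, the sulfate donor. Slc35b2 was at 23.6 and 22.7 against 13.8, 17.7 and 21.0 FPKM and Slc35b3 at 26.8 and 26.3 against 27.8, 29.8 and 29.5 FPKM. Neither was called, at log2 differences of 0.40 and -0.12. Slc35a1, the CMP-sialic acid carrier, overlapped, at 11.1 and 9.38 against 11.2, 10.5 and 14.5 FPKM. Slc35a3, for UDP-N-acetylglucosamine, did not, at 10.4 and 11 against 8.87, 8.57 and 8.28 FPKM (log2 difference 0.29, limma adjusted p = 0.244).

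Nucleoside, nucleobase and nucleotide carriers numbered 5, and limma called 0, with 0 higher and 2 lower at an unadjusted p under 0.05. The summed level was 141 and 135 FPKM in the deficient and 161, 156 and 170 FPKM in the sufficient libraries, and the deficient mean was 84.8% of the sufficient one. The class median was -0.20, and 0.01 with equal total FPKM, where the median of all genes was 0.18. Slc29a1 (ENT1), the main equilibrative transporter of adenosine and other nucleosides, was at 35.7 and 35.3 against 46.8, 42.6 and 49.7 FPKM. The log2 difference was -0.37 (SE 0.11, limma adjusted p = 0.137). Slc28a2 (CNT2), which concentrates purine nucleosides with sodium, was at 48.5 and 42.7 against 48.8, 49.9 and 58.9 FPKM, and Slc17a9, which fills vesicles with ATP, at 40.5 and 41.4 against 50.4, 45.8 and 48.8 FPKM. In all of these 3 the deficient values were below the sufficient ones, in Slc28a2 by a margin under 1 FPKM. Among all genes tested, 17.9% did not overlap with the deficient lower, and 8.45% were lower at an unadjusted limma p under 0.05. The lysosomal Slc29a3 (ENT3) overlapped, with a log2 difference of 0.17 (SE 0.15).

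Sugar carriers numbered 6, of which limma called 0, and 0 passed an unadjusted p of 0.05. Slc50a1, a sugar efflux carrier of the SWEET family, was the most abundant at 80.7 and 73.1 FPKM in the deficient and 89.5, 78.7 and 113 FPKM in the sufficient libraries, which overlapped. Slc2a3 (GLUT3), a glucose importer with high affinity, was at 24.7 and 25.8 against 28.8, 27.8 and 31.3 FPKM. The 2 groups did not overlap in Slc2a3, and the log2 difference was -0.20 (SE 0.10, limma adjusted p = 0.356). The carriers of glucose 6-phosphate, Slc37a1 and Slc37a4, had log2 differences of 0.03 and 0.15.

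Monocarboxylate carriers numbered 2, and limma called neither. Slc16a1 (MCT1), which moves lactate and pyruvate with protons, was at 5.83 and 6.70 FPKM in the deficient and 9.20, 9.62 and 8.73 FPKM in the sufficient libraries. The deficient mean was 68.3% of the sufficient one, a log2 difference of -0.49 (SE 0.12, limma adjusted p = 0.102). Slc16a6 was at 6.83 and 7.96 against 8.70, 13.7 and 8.55 FPKM (log2 difference -0.40, limma adjusted p = 0.365), and 21.5% of its annotated exon bases are shared with Amz2. The partner proteins that carry monocarboxylate transporters to the surface were on opposite sides. Emb (embigin) rose, at 100 and 120 against 62.4, 71.9 and 66.6 FPKM (log2 difference 0.70, SE 0.12, limma adjusted p = 0.0356). Bsg (basigin), the usual partner of MCT1, was at 80.1 and 89.6 against 107, 95.9 and 106 FPKM (log2 difference -0.27, limma adjusted p = 0.252) and was not called.

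Lipid, amine and other organic solute carriers numbered 4 and vitamin and cofactor carriers numbered 4, with 0 called by limma. In each class 1 was lower at an unadjusted p under 0.05, against 8.45% of all genes tested. Slc44a2, a choline transporter, was one of the 5 genes above 100 FPKM, at 169 and 157 against 183, 164 and 175 FPKM, and its groups overlapped. Slc22a5 (OCTN2), which imports carnitine, was at 13.8 and 11.5 against 22.2, 15.0 and 18.8 FPKM. Its log2 difference of -0.52 (SE 0.17) was not called (limma adjusted p = 0.193), though the groups did not overlap. Slc19a1, the reduced folate carrier, was at 13.1 and 11.7 against 16.3, 16.6 and 14.7 FPKM. The log2 difference in Slc19a1 was -0.34 (SE 0.11, limma adjusted p = 0.195).

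The remaining 7 genes bear a solute carrier name but are no transporters or have no known substrate, and limma called 0 of them. At an unadjusted p under 0.05, 0 were higher and 1 lower, against 9.36% and 8.45% of all genes tested. Slc9a3r1 encodes NHERF1, a scaffold that anchors membrane proteins, and was at 172 and 161 against 180, 172 and 185 FPKM. Its groups were separated by less than 1 FPKM. Slc10a3, a bile acid family member, was at 9.67 and 13.2 against 13.6, 15.4 and 16.9 FPKM, and 8.0% of its annotated exon bases are shared with Ubl4a on the same strand. The read-through row of both genes spread widely, at 2.60 and 8.01 against 7.53, 9.20 and 3.67 FPKM.

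**Figure D3:**
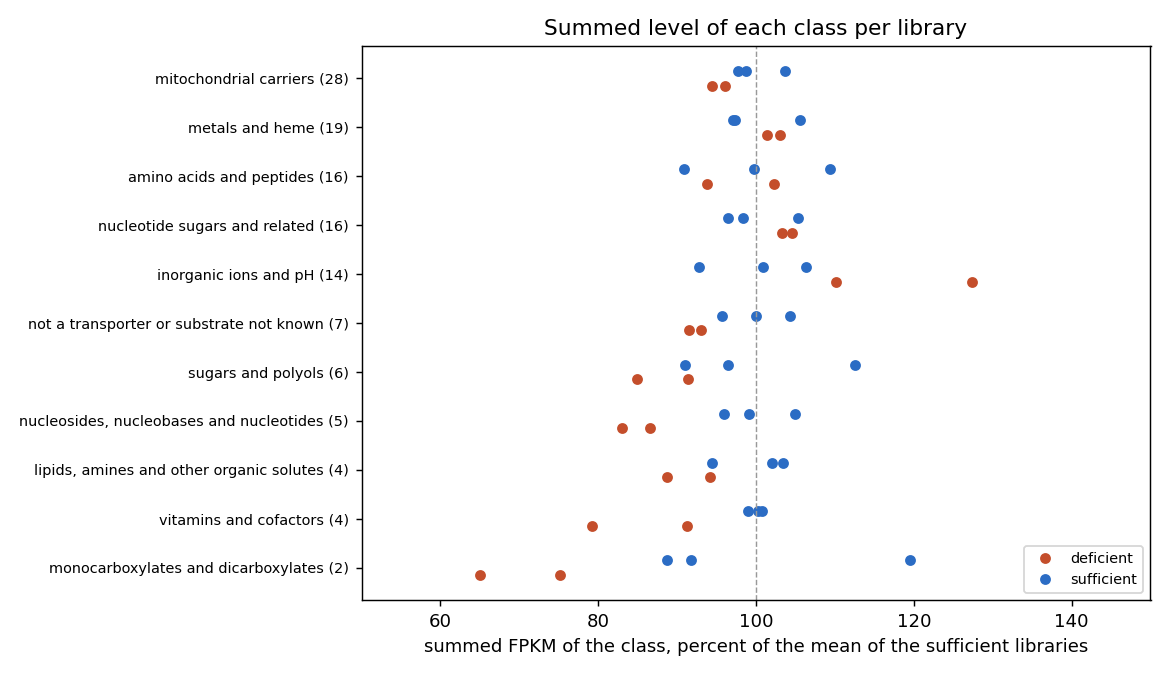
Summed FPKM of each class in each independent library, as a percent of the mean of the 3 sufficient libraries (x axis), by class (y axis, number of genes in brackets). The deficient libraries (red) lie above all sufficient ones (blue) for inorganic ions, and below all of them for mitochondrial carriers, nucleosides, monocarboxylates, vitamins, lipids and genes with no known substrate, on the deposited scale.

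These positions depend on the scale, since total FPKM was lower in the deficient libraries. As a share of all FPKM in its library, the mitochondrial class was at 0.230% and 0.227% in the deficient and 0.213%, 0.225% and 0.185% in the sufficient libraries, so the deficient ones lay above. By that share the deficient libraries also lay above all sufficient ones for inorganic ions, metals and heme, and nucleotide sugars, and the groups overlapped in the other classes.

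Levels were spread unevenly over the 121 genes. The 5 most abundant, Slc25a5, Slc25a3, Slc9a3r1, Slc44a2 and Slc1a5, held 33.6% of the summed level and the top 10 held 44.6%. There were 77 genes between 10 and 100 FPKM and 39 below 10 FPKM. Independent libraries of a group were close to each other for most genes, with a median range on the log2 scale of 0.14 between the 2 deficient and 0.23 between the 3 sufficient libraries. The range was under 0.5 in both groups for 103 of the 121 and above 1 in a group for only 2, Slc15a2 and the read-through row of Slc10a3 and Ubl4a.

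**Figure D4:**
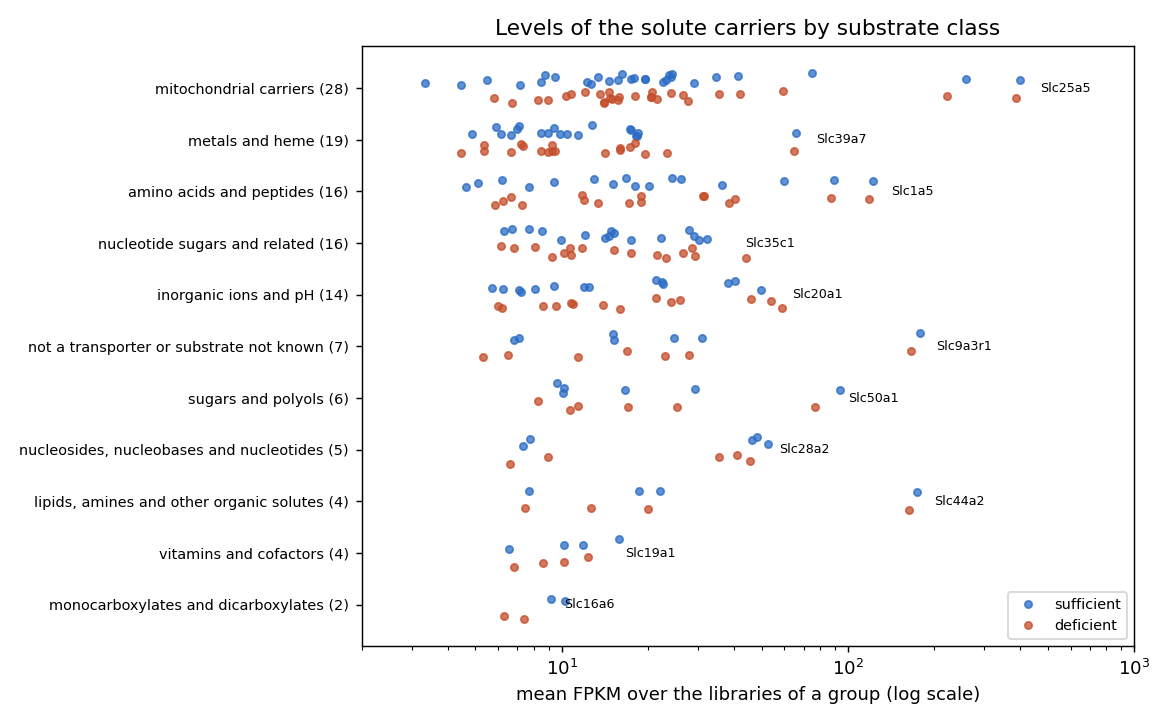
Mean FPKM (x axis, log scale) of each solute carrier over the deficient (red) and the sufficient (blue) libraries, by substrate class (y axis, number of genes in brackets), with the most abundant gene of each class named. Only 5 genes exceed 100 FPKM, and the red and blue points overlap in range in all classes but the monocarboxylates, where both red points lie below both blue ones.

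Other transport genes differed by list, where 2.63% of all genes tested were called. Calls took a larger share than that among P-type ATPase genes and accessory proteins of transporters, though on few genes. Of 28 ABC transporters tested, limma called 0, with 7 higher and 1 lower at an unadjusted p under 0.05, and of 17 V-ATPase subunits, which acidify lysosomes, it called 0, with 0 higher and 1 lower at that level. Of 23 P-type ATPase genes 1 rose and 1 fell, with 8 higher and 1 lower at that level. Of all genes tested, 9.36% were higher and 8.45% lower at that level, so the shares higher were above this in ABC transporters and P-type ATPase genes. Atp8b4, a lipid flippase, was at 2.27 and 2.24 FPKM against 0.247, 0.533 and 0.219 FPKM (log2 difference 1.29, limma adjusted p = 0.0341). Atp9a, of the same family, was at 3.60 and 2.82 against 6.00, 7.86 and 8.90 FPKM (log2 difference -1.02, limma adjusted p = 0.0418). Both are at low levels. Of the 11 accessory proteins of transporters tested, 1 rose (Emb) and 0 fell, with 1 higher and 3 lower at an unadjusted p under 0.05.

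Genes that read or answer amino acid supply were mostly not called, where 2.63% of all genes tested were called. Of 24 genes of lysosomal amino acid sensing and mTORC1, 0 rose and 1 fell, Rragd, one of the Rag GTPases that recruit mTORC1 to lysosomes. It was at 2.40 and 2.67 against 4.80, 4.82 and 4.95 FPKM (log2 difference -0.73, SE 0.14, limma adjusted p = 0.0456). Of 18 genes of the ATF4 response and amino acid synthesis limma called 0, with 0 higher and 3 lower at an unadjusted p under 0.05. Phgdh, the first enzyme of serine synthesis, came closest, at 42.1 and 44.7 against 59.0, 57.9 and 61.2 FPKM (log2 difference -0.44, limma adjusted p = 0.0671).

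Of 14 tested genes that handle iron and zinc without being solute carriers, 2 rose and 0 fell, and Heph was at 0 in all libraries. At an unadjusted limma p under 0.05, 5 of the 14 were higher and 0 lower, against 9.36% and 8.45% of all genes tested. Calls were made in 2.63% of all genes tested. Hmox1, which degrades heme, was at 64.6 and 41.4 against 3.10, 12.4 and 11 FPKM (log2 difference 2.60, limma adjusted p = 0.0450). Hfe, a regulator of iron uptake, was at 6.27 and 3.28 against 0.111, 0.107 and 1.117 FPKM (log2 difference 2.02, limma adjusted p = 0.0414). Hmox1 is also on the list of red pulp macrophage genes, and the part of macrophages in these values was not tested.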

How the data were processed

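RNA sequencing of sorted Treg cells gave 1 deposited table of FPKM per gene, as the authors' table name and the values show. The submitters' processing notes name the mm10 build, STAR 2.5.1, Cuffnorm 2.2.1 and Cuffdiff 2.2.1 without settings. The labels' protocols name a stranded total RNA kit and 2 Illumina instruments, without saying which sample ran on which. Of 16 value columns, 8 matched the samples and 8 matched none and were not used.

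Columns of a group whose spread of log ratios, over genes with 150 to 500 estimated fragments, was under 1.5 times sampling noise were averaged. Depth was estimated from the steps between low values of 3425 genes with a single transcript, taking an effective length 200 bases below the transcript length, and is approximate. Samples of a group are not stated to be separate animals, so p-values measure only the spread between libraries. Genes that averaged 1 FPKM or more in the 5 libraries (10614 genes, all 121 solute carriers among them) were tested on log2(FPKM + 1), with a pseudocount of 1, in limma 3.58.1 (R 4.3.3), using its mean-variance trend, with genotype as the only term. P-values are two-sided with Benjamini-Hochberg adjustment over all genes tested and a threshold of 0.05. Run on simulated data at that threshold, the procedure made 215 calls, of which 20 were false. It recovered 95% of the 2-fold and 100% of the 4-fold changes put in.

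The solute carriers, their classes and the other lists were chosen with earlier results of these data known. Classes follow textbook substrates. After the table was seen, the rows Slc2a4rg-ps and Slc10a3-ubl4 were placed among the genes that are no transporters, and the promoter motifs were chosen. Genes named are those called, the most abundant of each class, the 8 largest increases and decreases among genes whose groups do not overlap, and a set picked for known roles. Members named outside this rule (such as Slc7a6, Slc15a2, Slc25a4, Slc35b2 and Slc48a1) were picked after their values were seen. From the other lists, called genes and up to 3 with the lowest adjusted p were eligible. Overlaps of exons were read from GENCODE gene models of GRCm38. Alternatives were another pseudocount, other filters, 3 other scalings, a robust fit, the 8 columns taken singly with and without a replicate block, and leaving out each library. Some solute carriers are not reported here by name.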

Additional observations from a re-analysis of the deposited data

How the results depend on the processing

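The calls rest on 2 deficient libraries, and at 5 FPKM on 2 kb a shallow column holds about 30 fragments. Among the 121, 3 were called higher and 0 lower. Leaving out 1 library at a time gave 0 to 3 calls, all higher, with 0 when either deficient library was left out, 2 without sufficient replicates 1 and 3 or without sufficient replicate 2 (Slc25a53 lost its call), and 3 without sufficient replicate 4; a lone deficient library is then assumed to vary like the sufficient ones. The filter at 5 FPKM gave 2 and no filter 0. Equal totals gave 5, all higher, and a median of 0.192 for the solute carriers. Quantile normalization (Slc39a11, adjusted p = 0.0456) and the robust fit (Slc25a25, adjusted p = 0.0469) each called 1 lower, as did the deeper column of each pair (Slc25a25, adjusted p = 0.0361), an alternative chosen after seeing the data. Keeping only genes at 5 FPKM in each group, also chosen after seeing the data, left 1, Slc26a11. The pseudocount of 0.1 and the median of ratios gave 3 each. Over all genes, calls went from 279 to 182 with the pseudocount of 0.1, 99 without a filter, 113 with the filter at 5 FPKM, 371 with equal totals and 8 to 167 with a library left out. The cause was not tested where fewer libraries or other genes tested do not give it.

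The 8 columns taken as separate libraries gave 32 calls (19 higher, 13 lower; 1851 over all genes), and with the replicate number as a block 22 (12 higher, 10 lower; 1418 over all genes). The deviations of samples with the same number correlated at 0.03, 0.06, 0.13 and 0.09, so the numbers were not taken as pairs.

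Some differences that were not called changed sign. With equal totals they became 0.172 in Slc1a5, 0.164 in Slc25a5, 0.012 in Slc28a2, 0.001 in Slc2a3, 0.195 in Slc30a5, 0.183 in Slc38a2, 0.001 in Slc39a1, 0.189 in Slc39a7, 0.120 in Slc44a2, 0.080 in Slc4a7 and 0.109 in Slc9a3r1, where the median of all genes was 0.18. With quantile normalization they became 0.042 in Slc1a5, 0.128 in Slc25a5, 0.055 in Slc38a2, 0.027 in Slc39a7, 0.016 in Slc44a2 and 0.011 in Slc9a3r1. The deeper columns gave 0.015 in Slc30a5. With 1 library left out the range was -0.010 to 0.460 in Slc20a1, -0.168 to 0.072 in Slc25a5, -0.047 to 0.034 in Slc30a5, -0.348 to 0.294 in Slc38a2 and -0.115 to 0.040 in Slc39a7.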
